A study of Saccharomyces cerevisiae with 18 samples.

Results

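The question addressed here is whether the response of yeast to 5 mg/L nonylphenol differed between 120 and 180 min of exposure. For each gene it was read as the difference between times, (5 mg/L minus control at 180 min) minus (5 mg/L minus control at 120 min), in log2 units. All 5498 Saccharomyces cerevisiae probe sets, which stood for 5449 genes, were tested on 12 of the 18 arrays of the series. The 12 arrays fall into 4 groups of 3 arrays, called biological replicates in the labels: ethanol alone for 120 min, ethanol alone for 180 min, 5 mg/L nonylphenol for 120 min and 5 mg/L nonylphenol for 180 min. The remaining 6 arrays, 3 at 1 mg/L for each time, served as a second reference. All cultures were of strain BY4742, a haploid laboratory strain of mating type alpha, grown in YPD, a rich glucose medium, and dosed in mid-exponential phase. Nonylphenol was added in ethanol and controls received ethanol too, so ethanol is common to all groups. Nothing in the labels says whether the 120 and 180 min samples came from the same flasks, so the p-values cover the scatter of these arrays, which may be partly technical.

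Nonylphenol is an alkylphenol formed when certain industrial surfactants break down, and it partitions into membranes. Yeast growing on glucose ties much of its transcription to growth: genes for making ribosomes are high in fast growth, while stress, storage carbohydrate and respiratory genes are held low and come up as growth slows or glucose falls. A difference between times can arise from a change in the exposed cultures, from a change in the control cultures, or from both, and each is given below.

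On single arrays 98.3 to 99.3% of the probe sets lay above the background level of log2 1.86, which is the percentile 95 of probe sets for another yeast species on the same array. Replicate arrays correlated at r = 0.995 to 0.999, and the median SD within a group was 0.05 and 0.06 in controls and 0.09 and 0.07 at 5 mg/L, at 120 and 180 min. The alpha-specific genes SAG1 and STE3 were high in all 4 groups, and URA3 and LYS2, which the standard BY4742 genotype lacks, were under background in all 4. LEU2, also deleted in that genotype, read 2.89 to 3.04, above background but far under the median S. cerevisiae level of 7.93. HIS3 read 8.84 to 9.48, so its probe set did not mark a deletion. Readings of RNA ends stood apart in part of the controls and of the 1 mg/L arrays. The 3′ minus 5′ signal of 6 genes was 1.19, 1.5 and 1.48 in controls at 180 min, against 1.07 to 1.22 in controls at 120 min and 0.95 to 1.15 at 5 mg/L. The difference between times of this reading was -0.25 (SE 0.14). At 1 mg/L the signal was 1.42, 1.18 and 1.01 at 120 min. It was 1.03, 1.55 and 1.08 at 180 min, where 1.55 was the highest of all 18 arrays.

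At an adjusted p under 0.05 (limma, Benjamini-Hochberg over all 5498 probe sets), the effect of 5 mg/L differed between times for 1108 probe sets, 20.2% of those tested. It was higher at 180 min for 587 (10.7%) and lower for 521 (9.48%), and these 1108 probe sets stood for 1106 genes. The counts in the gene lists below are to be read against these 2 shares. Most differences were small. Their median size was log2 0.38, 245 of them (22.1%) reached 0.5, and 9 reached 2-fold. The median standard error of a difference was 0.09 over all probe sets, and the median difference was -0.01. None of the 1746 probe sets of the other yeast species passed the same test when fitted apart, with 95 at an unadjusted p under 0.05.

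Against these differences stood an effect that was broad at both times. The 5 mg/L cultures differed from control in 3397 probe sets at 120 min (61.8%) and in 3567 at 180 min (64.9%), and across probe sets the 2 effects, which share no array, correlated at r = 0.84. Of the 1108 differences, 354 were effects that grew from 120 to 180 min without a change of sign, 334 were effects that shrank, and 420 had estimates of opposite sign at the 2 times. In 82 of the last group the effect was called at both times in opposite directions, above control at 180 min in 52 and below it in 30. When only effects of at least log2 0.5 were counted as having a sign, 0 turned and 217 shrank, so no probe set had effects of that size in opposite directions at the 2 times.

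**Figure D1:**
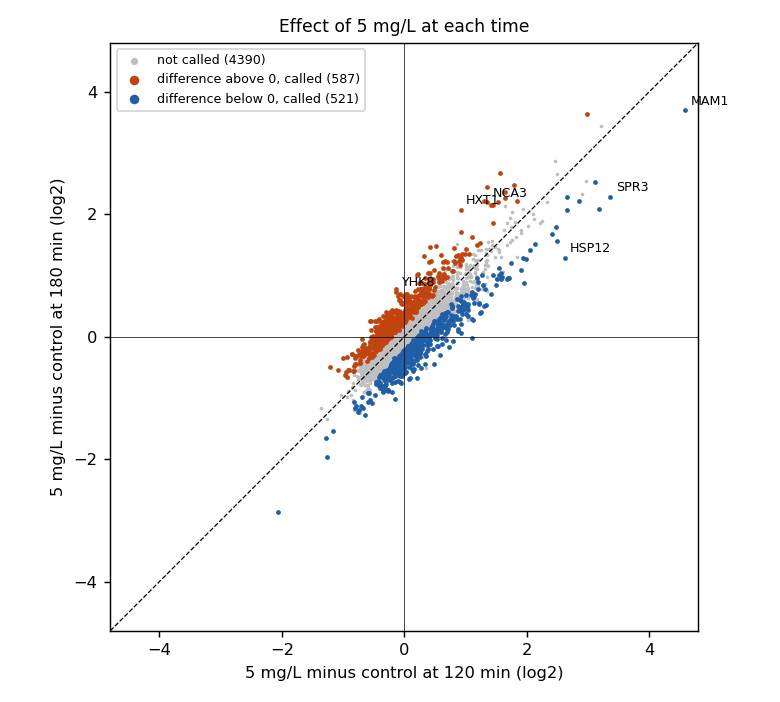
Each point is 1 of 5498 probe sets, with the effect of 5 mg/L against control at 120 min (x axis, log2) and at 180 min (y axis, log2), and the dashed line marks equal effects. The 587 probe sets called higher at 180 min lie above the line and the 521 called lower lie under it, close to it in relation to the range of the effects.

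The count depended on single arrays, on the scaling and on the model. With array weights 2224 were called, of which more were lower (1186) than higher (1038), and with the replicate number as a block within time 535 were called. Leaving out 1 array moved it to between 556 and 1815, and 496 probe sets (275 higher and 221 lower) were called without each array in turn. The arrays that moved it by more than 1.5 times were control replicates 1 and 3 at 120 min (627 and 562 calls without them), control replicate 2 at 180 min (556), 5 mg/L replicates 1 and 2 at 120 min (715 and 1815) and 5 mg/L replicate 3 at 180 min (652). With replicate 1 as the only control kept at 180 min, that is without the 2 control arrays of high 3′ minus 5′ signal, 185 were called, 109 higher and 76 lower. Poly-A control transcripts, which are bacterial sequences meant to be added to RNA samples, averaged 4.25 and 4.38 in controls and 5.03 and 4.62 at 5 mg/L, at 120 and 180 min. Scaling on them adds 0.55 (SE 0.32) to every difference between times, which leaves 49 calls, 49 higher and 0 lower, with 1687 at an unadjusted p under 0.05. On that scale every list median given below lies above 0, and the order of the genes is the same as on the deposited scale.

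The control cultures changed between 120 and 180 min in 1645 probe sets (29.9%), 836 higher and 809 lower. The 5 mg/L cultures changed in 102 probe sets (1.86%), 34 higher and 68 lower, with 1102 at an unadjusted p under 0.05. Both changes come from the same fit with the same pooled error, and the spread of the changes across all probe sets was an SD of 0.20 in controls and 0.14 at 5 mg/L. The count at 5 mg/L ran from 18 without 5 mg/L replicate 3 at 120 min to 390 without replicate 2 of that group, and that in controls from 885 without control replicate 2 at 180 min to 1952. It also fell to 923 and 976 without control replicates 3 and 1 at 120 min, and to 306 with replicate 1 as the only control at 180 min.

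The 1 mg/L cultures, which share no array with either group, changed over time much as the controls did. Their arrays also differ in the 3′ minus 5′ signal, as given above, and its part in these changes was not tested. In a fit of all 18 arrays, 561 probe sets changed over time at 1 mg/L (10.2%), against 1278 in controls and 49 at 5 mg/L. Across the 5498 probe sets the change at 1 mg/L correlated with that in controls at r = 0.84, and the change at 5 mg/L correlated at -0.06 with controls and 0.03 with 1 mg/L. These are correlations across genes of group means of 3 arrays, and genes are not independent replicates. With the 1 mg/L cultures as reference in place of controls, a comparison added after the data were seen, the change over time at 5 mg/L differed in 281 probe sets (5.11%), 178 higher and 103 lower. It uses the same 5 mg/L arrays as the main comparison and no control array. Between 1 mg/L and control the change over time differed in 0 probe sets by limma, with 139 at an unadjusted p under 0.05.

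**Figure D2:**
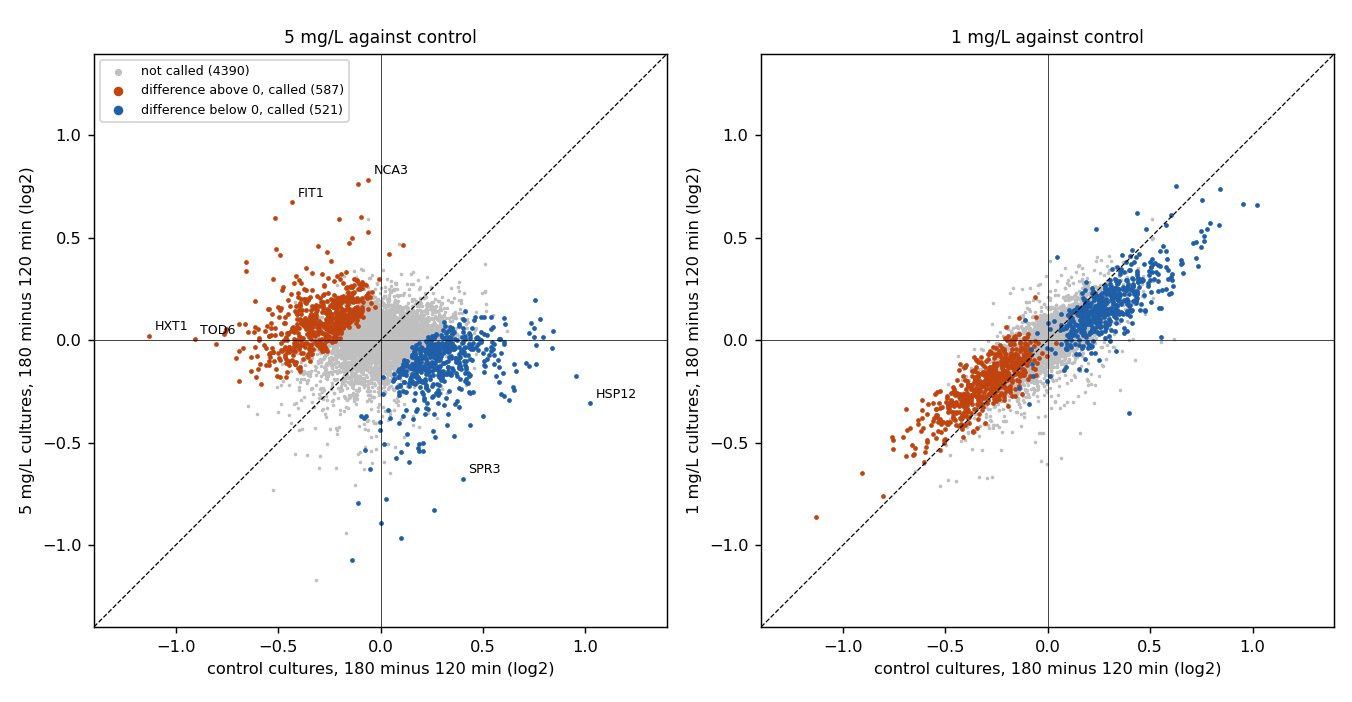
Change from 120 to 180 min in controls (x axis, log2) against the change at 5 mg/L (left) and at 1 mg/L (right), with 1 point per probe set, colours for the 1108 called differences between times of the 5 mg/L effect and a dashed line at equal change. The left cloud is wider along the control axis than along the 5 mg/L axis (SD 0.20 against 0.14), while the right cloud follows the line of equal change (r = 0.84).

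Genes for making ribosomes formed the largest block above 0. Of 84 probe sets for ribosome biogenesis and RNA polymerase I, 62 had a higher effect at 180 min, 0 a lower one and 22 were not called, with a median difference of 0.37 (at an unadjusted p under 0.05, 72 higher and 0 lower). In controls 74 of the 84 fell over time, with a median change of -0.39, and 57 fell at 1 mg/L, with a median of -0.30. At 5 mg/L 0 of the 84 were called over time (8 higher and 12 lower at an unadjusted p under 0.05), with a median of -0.03. The mean log2 level of the list was 9.30, 9.22 and 9.30 in controls at 120 min, 8.90, 8.88 and 8.89 in controls at 180 min, 9.0, 8.98 and 9.05 at 5 mg/L and 120 min, and 8.99, 8.97 and 9.0 at 5 mg/L and 180 min. The 5 mg/L cultures thus stood under all control arrays at 120 min and above all of them at 180 min. The median effect was -0.26 at 120 min and 0.05 at 180 min. With replicate 1 as the only control at 180 min, 23 members were called higher, with a median of 0.35.

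DBP2 (YNL112W), an RNA helicase that acts in rRNA processing, read 9.70, 9.75 and 9.80 in controls at 120 min and 9.02, 8.97 and 8.99 at 180 min. At 5 mg/L it read 9.19, 9.16 and 9.25 at 120 min and 9.19, 9.25 and 9.34 at 180 min. The exposed arrays lay under all controls at 120 min and above all of them at 180 min, a difference between times of 0.81, or 1.76-fold (SE 0.07, adjusted p = 8.2e-05). MPP10 (YJR002W), a protein of the small subunit processome, read 7.56, 7.56 and 7.62 in controls and 6.86, 6.93 and 6.89 at 5 mg/L at 120 min, and 7.12, 7.04 and 7.11 against 7.02, 7.05 and 7.08 at 180 min. The gap of -0.68 at 120 min was -0.04 at 180 min, when the groups overlapped. The helicase HAS1 (YMR290C) kept a smaller gap, -1.22 and then -0.49, and NSR1, a nucleolin-like protein, went from -1.0 to -0.34. NOG1 (YPL093W), a GTPase of the large subunit precursor, was level with control at 120 min (0.12, adjusted p for that effect 0.066) and 0.67 above it at 180 min. RRP12 had a difference of 0.74.

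TOD6 (YBL054W), a repressor of ribosome biogenesis genes, moved in the same direction as those genes. It read 7.27, 7.24 and 7.29 in controls at 120 min and 6.40, 6.28 and 6.39 at 180 min, while at 5 mg/L it read 6.97, 7.23 and 7.21 and then 7.10, 7.13 and 7.20. The exposed arrays lay just under the controls at 120 min and clearly above them at 180 min, a difference between times of 0.91 (SE 0.09, adjusted p = 0.000182). Translation factors and tRNA synthetases had 6 of 47 higher (12.8%, near the 10.7% over all probe sets) and 0 lower (14 and 0 at an unadjusted p under 0.05). The higher count ran from 0 to 13 when 1 array was left out and was 0 with replicate 1 as the only control at 180 min. Among the 6 were NIP1 and RPG1, subunits of the initiation factor eIF3, at 0.29 and 0.28, and TIF4631 and GCD1 at 0.27 and 0.33. The helicase DED1 had 0.57. The 147 probe sets for cytosolic ribosomal proteins did not share the pattern of ribosome biogenesis: 0 were higher and 1, RPP2B, was lower by -0.31, with a median of -0.08 (1 higher and 5 lower at an unadjusted p under 0.05). In controls 7 of them rose and 0 fell.

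Respiratory genes formed the main block below 0. Of 39 probe sets for the respiratory chain and ATP synthase, 24 had a lower effect at 180 min and 0 a higher one, with a median of -0.33 (27 and 0 at an unadjusted p under 0.05). In controls 27 rose over time and 0 fell, at a median of 0.29, and at 1 mg/L 20 rose, at 0.26. At 5 mg/L 0 rose and 1, CYT1, fell, at a median of -0.04. The mean level of the list was 8.94, 8.97 and 8.92 in controls and 8.94, 8.86 and 8.89 at 5 mg/L at 120 min. At 180 min it was 9.24, 9.25 and 9.18 in controls and 8.87, 8.82 and 8.85 at 5 mg/L. The groups overlapped at 120 min and were apart at 180 min, with median effects of -0.09 and -0.47. Keeping replicate 1 as the only control at 180 min, 8 were called lower, with a median of -0.35.

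COX5B (YIL111W), the hypoxic isoform of cytochrome c oxidase subunit V, read 8.19, 8.28 and 8.07 in controls at 120 min and 8.91, 8.99 and 8.92 at 180 min, against 8.51, 8.36 and 8.47 and then 8.50, 8.31 and 8.45 at 5 mg/L. It was above all controls at 120 min and under all of them at 180 min (difference -0.78, SE 0.09, adjusted p = 0.000459). COX5A, the aerobic isoform, had -0.45, CYT1, cytochrome c1, had -0.42, and CYC7, the hypoxic isoform of cytochrome c, had -0.64. Of 20 citrate cycle probe sets 5 were lower and 0 higher (10 and 0 at an unadjusted p under 0.05), among them LSC2, a subunit of succinyl-CoA ligase (-0.78), CIT1, citrate synthase (-0.48), SDH2 (-0.45) and MDH1 (-0.38). Mitochondrial ribosomal proteins had 18 of 63 lower and 0 higher, with a median of -0.19 (31 and 2 at an unadjusted p under 0.05). In controls 45 of the 63 rose, and at 5 mg/L 0 were called (7 higher and 3 lower at an unadjusted p under 0.05). MRPL25, MRPS9, MRPS35 and MRP2 had differences of -0.38, -0.36, -0.48 and -0.53. This count ran from 2 to 30 when 1 array was left out and was 1 with replicate 1 as the only control at 180 min.

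General stress genes, the type induced by the factors Msn2 and Msn4, were raised at 5 mg/L at both times, and their effect shrank. All 34 were above control at 120 min and 29 at 180 min, with median effects of 1.03 and 0.77. The effect was lower at 180 min for 17 and higher for 1, with a median difference of -0.27. The mean level of the list was 6.40, 6.51 and 6.47 in controls at 120 min and 6.76, 6.84 and 6.82 at 180 min, and it was 7.51, 7.61 and 7.58 and then 7.52, 7.61 and 7.62 at 5 mg/L. Controls rose and the exposed arrays, which were above all controls, kept nearly the same range: 22 of 34 rose in controls, 15 at 1 mg/L, and 1 at 5 mg/L, where 0 fell (5 higher and 2 lower at an unadjusted p under 0.05). On the single control array of replicate 1 at 180 min, 8 were called lower and 0 higher.

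HSP12 (YFL014W), a small membrane-associated stress protein, had the largest difference between times of all probe sets. It read 7.14, 7.39 and 7.24 in controls at 120 min and 8.13, 8.42 and 8.28 at 180 min, against 9.89, 9.76 and 9.97 and then 9.52, 9.66 and 9.51 at 5 mg/L. The exposed arrays were above all controls at both times, 6.15-fold at 120 min and 2.44-fold at 180 min, a difference of -1.33 (SE 0.12, adjusted p = 8.2e-05). Its change over time at 5 mg/L, -0.31, did not pass (adjusted p = 0.0814). RTC3 (difference -0.82), SOL4, a 6-phosphogluconolactonase (-0.85), and GAD1, glutamate decarboxylase (-0.89), also belong to the list. GAD1 was 0.73 above control at 120 min and at -0.17 at 180 min.

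EGO4 (YNR034W-A), a vacuolar protein, read 5.84, 5.94 and 5.87 in controls and 7.09, 6.95 and 6.94 at 5 mg/L at 120 min. At 180 min it read 6.72, 7.0 and 6.80 in controls and 6.84, 6.95 and 6.67 at 5 mg/L, and the groups overlapped (difference -1.13, SE 0.11, adjusted p = 0.000163). GPM2 (YDL021W), a homologue of phosphoglycerate mutase, followed the same course, 0.93 above control at 120 min and 0.06 at 180 min (difference -0.88, SE 0.07, adjusted p = 3.35e-05). HAC1 (YFL031W), the transcription factor of the unfolded protein response, had 8.99, 9.19 and 8.79 in controls and 9.91, 9.70 and 9.75 at 5 mg/L at 120 min, and 9.72, 9.95 and 9.80 against 9.79, 9.80 and 9.67 at 180 min. Its difference was -0.87, with groups apart at 120 min and overlapping at 180 min. The other ER folding and unfolded protein response genes called were MPD1 at -0.32 and UBC7 at -0.24, so 3 of 32 were lower and 0 higher (4 and 5 at an unadjusted p under 0.05). The array reads total HAC1 RNA and does not separate its spliced form.

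Storage carbohydrate genes followed the stress genes. Of 19 for glycogen and trehalose, 7 were lower and 0 higher (10 and 0 at an unadjusted p under 0.05), among them GSY1, glycogen synthase (-0.76), GPH1, glycogen phosphorylase (-0.69), GLC3, the branching enzyme (-0.58), and PIG2 (-0.50). GPH1 was 0.54 above control at 120 min and 0.15 below it (log2 -0.15) at 180 min. Chaperones had 3 of 27 higher and 4 lower (11.1% and 14.8%), near the 10.7% and 9.48% over all probe sets, and 0 of either with replicate 1 as the only control at 180 min. HSP26, SSA4 and HSP78 had -0.56, -0.44 and -0.26, and HSF1, the heat shock factor, had 0.32. Autophagy and vacuolar genes had 6 of 33 lower and 1 higher, among the lower ATG8, the ubiquitin-like protein of the autophagosome (-0.63), ATG19, ATG34 and ATG39. For gluconeogenesis and the glyoxylate cycle 5 of 21 were lower and 0 higher (8 and 2 at an unadjusted p under 0.05), including MLS1, malate synthase (-0.57), and JEN1, the lactate permease (-0.45). Peroxisomal genes had 6 of 26 lower and 0 higher (9 and 1 at an unadjusted p under 0.05), including POX1, acyl-CoA oxidase (-0.85), whose group means were 3.15 or less. The peroxisomal count ran from 1 to 10 when 1 array was left out, was 2 with all 18 arrays in the fit and 1 with replicate 1 as the only control at 180 min. That single control left 0 autophagy genes and 1 of gluconeogenesis called lower.

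Glucose transporters of the same family moved in opposite directions. HXT1 (YHR094C), a low-affinity transporter induced by high glucose, had the largest difference above 0. It read 7.32, 7.26 and 7.42 in controls at 120 min and 6.19, 6.15 and 6.26 at 180 min, and 8.17, 8.19 and 8.40 and then 8.19, 8.25 and 8.39 at 5 mg/L. The exposed arrays were above all controls at both times and their change over time of 0.02 did not pass, while the effect went from 1.89-fold to 4.22-fold, a difference of 1.15 (SE 0.10, adjusted p = 8.2e-05). HXT2, a high-affinity transporter, read 9.25, 9.24 and 9.44 in controls at 120 min and 8.58, 8.49 and 8.45 at 180 min, with 10.06, 10.32 and 10.30 and then 10.11, 10.20 and 10.31 at 5 mg/L (difference 0.78). HXT1 and HXT2 fell in the 1 mg/L cultures as in controls, by 0.86 and 0.76 on the log2 scale. HXT4 had -0.38 and HXT11 had -0.67. In the whole list of 26 probe sets for hexose transporters and sensors 5 were higher and 5 lower (19.2% each, against 10.7% and 9.48% over all probe sets). Of 27 for glycolysis and fermentation 1 was higher, the acetaldehyde dehydrogenase ALD6 (0.42), and 5 lower, including TDH1 (-0.47), HXK1 (-0.62) and ADH2 (-0.34).

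A smaller set of differences carried a change over time in the 5 mg/L cultures themselves. Of the 102 probe sets called over time at 5 mg/L, 61 also had a called difference between times. Of the 34 that rose, whether or not the difference was called, 5 were daughter separation genes and 4 iron uptake genes, and of the 68 that fell 9 were sporulation genes. The calls in this comparison are those that moved from 18 to 390 when 1 array was left out, as given above.

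Genes for iron uptake, driven by the factors Aft1 and Aft2, were raised at 5 mg/L at both times, and more so at 180 min. Of 31 probe sets 15 had a higher effect at 180 min and 0 a lower one, with a median of 0.29 (17 and 1 at an unadjusted p under 0.05), and the median effect was 0.61 at 120 min and 0.78 at 180 min. In controls 13 fell and 1 rose, and at 5 mg/L 4 rose and 0 fell (14 higher and 2 lower at an unadjusted p under 0.05). The mean level of the list was 7.80, 7.85 and 7.85 in controls at 120 min and 7.61, 7.67 and 7.65 at 180 min, and 8.59, 8.73 and 8.62 and then 8.72, 8.81 and 8.83 at 5 mg/L. Controls of the 2 times were apart, and the 5 mg/L arrays of the 2 times overlapped slightly, since 1 array at 180 min lay within the range at 120 min. When replicate 1 was the only control at 180 min, 10 members were called, with a median of 0.31.

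FIT1 (YDR534C), a mannoprotein that holds siderophore iron in the cell wall, read 6.35, 6.36 and 6.5 in controls at 120 min and 6.01, 5.89 and 6.02 at 180 min. At 5 mg/L it read 7.51, 8.0 and 7.74 and then 8.17, 8.34 and 8.76. Controls fell and exposed cultures rose, with no overlap between any of the 4 groups, and the effect went from 2.54-fold to 5.47-fold (difference 1.10, SE 0.19, adjusted p = 0.00316). The siderophore transporters ARN1, ARN2 and SIT1 had 0.91, 0.63 and 0.67. Of these ARN2 rose over time at 5 mg/L (0.47), while ARN1 (0.42, adjusted p = 0.0697) and SIT1 (0.16) did not pass. For the reductive system the controls moved: FRE1, a ferric reductase, fell by 0.67 on the log2 scale in controls and was at -0.04 at 5 mg/L, and FET3, the multicopper oxidase, fell by 0.32 in controls against 0.08 at 5 mg/L. Their differences were 0.64 and 0.40. Among 19 copper and zinc genes 4 were higher and 1 lower (21.1% and 5.26%, against 10.7% and 9.48% over all probe sets). Those named were CTR1, the copper transporter (0.52), FRE7 (0.79), ZAP1 (0.36) and IZH2 (-0.36). The call of IZH2 was lost in 9 of the 12 fits that left out 1 array. CTR1 and FRE7 fell in controls by 0.56 and 0.76.

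Genes of daughter cell separation, which are expressed in the daughter after division, were the list with the largest share called. Each array reads a whole culture, so a change in the share of cells at a stage and a change of RNA per cell cannot be told apart. Of 13 probe sets 11 had a higher effect at 180 min and 0 a lower one (11 and 0 at an unadjusted p under 0.05), with a median of 0.47, and the median effect was 0.09 at 120 min and 0.68 at 180 min. In controls 9 fell and 0 rose, and at 5 mg/L 5 rose and 0 fell (8 and 0 at an unadjusted p under 0.05). The mean level of the list was 10.08, 10.03 and 10.08 in controls and 10.14, 10.35 and 10.31 at 5 mg/L at 120 min. At 180 min it was 9.87, 9.78 and 9.85 in controls and 10.46, 10.52 and 10.55 at 5 mg/L. The exposed arrays were above all controls at both times, and 5 mg/L replicate 1 at 120 min was the lowest of its group. The count ran from 10 to 11 when 1 array was left out, and 3 were called with replicate 1 as the only control at 180 min, with a median of 0.42.

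SCW11 (YGL028C), a cell wall glucanase of the daughter, read 10.34, 10.19 and 10.25 in controls at 120 min and between 9.98 and 10.02 at 180 min, and 10.01, 10.37 and 10.31 and then 10.58, 10.65 and 10.76 at 5 mg/L. The groups overlapped at 120 min, and at 180 min all exposed arrays were above all controls (difference 0.69, SE 0.12, adjusted p = 0.0027). PRY3 (YJL078C), a cell wall protein of the sterol-binding CAP family, had 9.37, 9.24 and 9.26 in controls and 9.52, 9.98 and 9.92 at 5 mg/L at 120 min, and 8.88, 8.64 and 8.81 against 10.08, 10.36 and 10.31 at 180 min. Its difference was 0.95 (SE 0.16, adjusted p = 0.00241), and the exposed arrays were above all controls at both times. BUD9, a bud site marker, had 0.66 and EGT2, which acts in cell separation, 0.50. Among other cell cycle genes, 8 of 37 for G1 and S phase were higher and 0 lower (18 and 0 at an unadjusted p under 0.05), including POL2, a DNA polymerase (0.40), MCM3 of the replicative helicase (0.32), ASF1 (0.43) and SMC1 (0.38). That count ran from 2 to 16 when 1 array was left out and was 0 with replicate 1 as the only control at 180 min. For mitosis 2 of 26 were higher, NDD1 (0.37) and FKH2 (0.45), and 2 lower, CLB1 (-0.64) and ALK1 (-0.26). That is 7.69% each way, under the shares over all probe sets. Leaving out 1 array lost the call of NDD1 in 8 of 12 fits and that of FKH2 in 7.

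Mating genes of alpha and haploid cells had 8 of 30 higher and 1 lower, with a median of 0.13. These are 26.7% and 3.33%, against 10.7% and 9.48% over all probe sets. AGA1 (YNR044W), the anchor subunit of a-agglutinin, read 9.22, 9.03 and 9.21 in controls at 120 min and 9.02, 8.89 and 8.95 at 180 min, and 9.40, 9.72 and 9.67 and then 10.10, 10.17 and 10.29 at 5 mg/L. It rose over time at 5 mg/L with no overlap between the times (0.59), and the difference was 0.79. SAG1 had 0.38 and SST2, the regulator of the pheromone G protein, 0.36. FIG1, a membrane protein induced by pheromone, went the other way (-0.92), and rose over time in controls (0.63) and at 1 mg/L (0.75). The a-specific genes had 0 of 7 called by limma (0 higher and 1 lower at an unadjusted p under 0.05), although their median effect was 1.20 at 120 min and 1.25 at 180 min. Their median change over time was -0.11 in controls and -0.17 at 5 mg/L, where 0 of 7 were called.

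Sporulation and meiosis genes were the list with the most called falls over time at 5 mg/L. BY4742 is haploid and does not sporulate. Of 64 probe sets 12 had a lower effect at 180 min and 2 a higher one, with a median of -0.17. At 5 mg/L 9 fell over time and 0 rose (23 and 2 at an unadjusted p under 0.05), while in controls 7 rose and 5 fell. The mean level of the list was 4.06, 4.03 and 4.05 in controls at 120 min and 4.02, 4.08 and 4.12 at 180 min, and 4.58, 4.59 and 4.68 and then 4.49, 4.48 and 4.37 at 5 mg/L. The exposed arrays were above all controls at both times and lower at 180 min than at 120 min. These are dim probe sets, and 52 of the 64 had means above background in all 4 groups. Of all 204 probe sets with a mean level between 2 and 4, 2 were higher and 31 lower, with a median difference of -0.22, so dim probe sets as a class leaned the same way. The part of this lean in the list's counts was not tested. If replicate 1 alone stood for controls at 180 min, 4 were called lower and 0 higher.

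SPR3 (YGR059W), a septin made during sporulation, read 3.13, 3.0 and 2.87 in controls at 120 min and 3.24, 3.57 and 3.39 at 180 min, and 6.40, 6.33 and 6.36 and then 5.77, 5.75 and 5.53 at 5 mg/L. The 4 groups did not overlap; controls rose and exposed cultures fell, and the effect went from 10.29-fold to 4.87-fold (difference -1.08, SE 0.13, adjusted p = 0.000387). MAM1 (YER106W), a subunit of the monopolin complex of meiosis I, read 4.19, 3.56 and 3.85 in controls and 8.55, 8.59 and 8.22 at 5 mg/L at 120 min, and 4.10, 3.75 and 3.77 against 7.69, 7.85 and 7.16 at 180 min. Its effect was the largest of the array at either time, log2 4.59 and 3.69, and the difference of -0.89 (SE 0.26, adjusted p = 0.031) was lost when some single arrays were left out. SAE3 (YHR079C-A), a meiotic recombination factor, read under background in the control means of both times and 4.51, 4.54 and 4.48 and then 3.66, 3.54 and 3.84 at 5 mg/L, so its fall over time (-0.83) rests on the exposed arrays and its difference between times has no measured control level behind it. SPO11, the meiotic double-strand break enzyme, had a difference of -0.64 and a fall at 5 mg/L of -0.51. SPO19 had -0.64 and -0.55. Its control mean was 1.80 at 120 min, under background, and 1.90 at 180 min, just above it, so its difference has little measured control level behind it.

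Outside these lists, other large differences also rested on exposed cultures. SRT1 (YMR101C), a cis-prenyltransferase, read 3.83, 3.60 and 3.62 in controls and 5.63, 5.53 and 5.74 at 5 mg/L at 120 min, and 3.74, 3.90 and 3.72 against 4.61, 4.84 and 4.54 at 180 min. Controls of the 2 times overlapped and exposed arrays were lower at 180 min, with a difference of -1.07 (SE 0.13, adjusted p = 0.000387). YGR273C, of unknown function, was under background in controls and fell at 5 mg/L by 1.07 on the log2 scale, so its difference too has no measured control level. SUL1, a sulfate permease, was under background in controls and fell by 0.77 at 5 mg/L (difference -0.80, with the same limit). INO1, inositol phosphate synthase, was 3.11 above control at 120 min and 2.53 at 180 min (difference -0.58, adjusted p = 0.0495), and its call was lost when some single arrays were left out.

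YHK8 (YHR048W), a presumed drug transporter of the major facilitator type, read 5.31, 5.31 and 5.48 in controls at 120 min and 5.12, 5.30 and 5.35 at 180 min, and 5.22, 5.11 and 5.35 and then 5.83, 5.84 and 6.30 at 5 mg/L. The exposed arrays of 180 min were above all other arrays of the comparison, which overlapped among themselves (difference 0.87, SE 0.16, adjusted p = 0.00395). NCA3 (YJL116C), a protein of the SUN family, had 4.77, 4.81 and 4.92 and then 4.73, 4.90 and 4.69 in controls, and 5.90, 6.41 and 6.24 and then 6.61, 7.13 and 7.17 at 5 mg/L. Its effect went from 2.55-fold to 4.59-fold (difference 0.85, SE 0.20, adjusted p = 0.0141) with controls level. YMR317W, of unknown function, had 1.11, with controls falling by 0.52 and exposed cultures rising by 0.60. YAR068W and YAR066W, a pair of subtelomeric genes, had 1.04 and 1.00, the latter from a probe set design shared by similar transcripts. In controls each fell by 0.66 on the log2 scale. At 5 mg/L YAR068W rose by 0.38, and the change of YAR066W, 0.34, was not called. HUG1, a small protein induced by DNA damage, rose by 0.60 at 5 mg/L (difference 0.70). Of 27 DNA damage and ribonucleotide reductase genes 4, with HUG1, were higher and 3 lower (14.8% and 11.1%, near the 10.7% and 9.48% over all probe sets). The efflux regulator PDR3 rose by 0.27 at 5 mg/L and had 0.34. Its list of 23 drug efflux genes had 4 higher and 3 lower (17.4% and 13.0%, against 10.7% and 9.48% over all probe sets). PDR16 had 0.26, and QDR2 and TPO4 had -0.46 and -0.34.

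**Figure D3:**
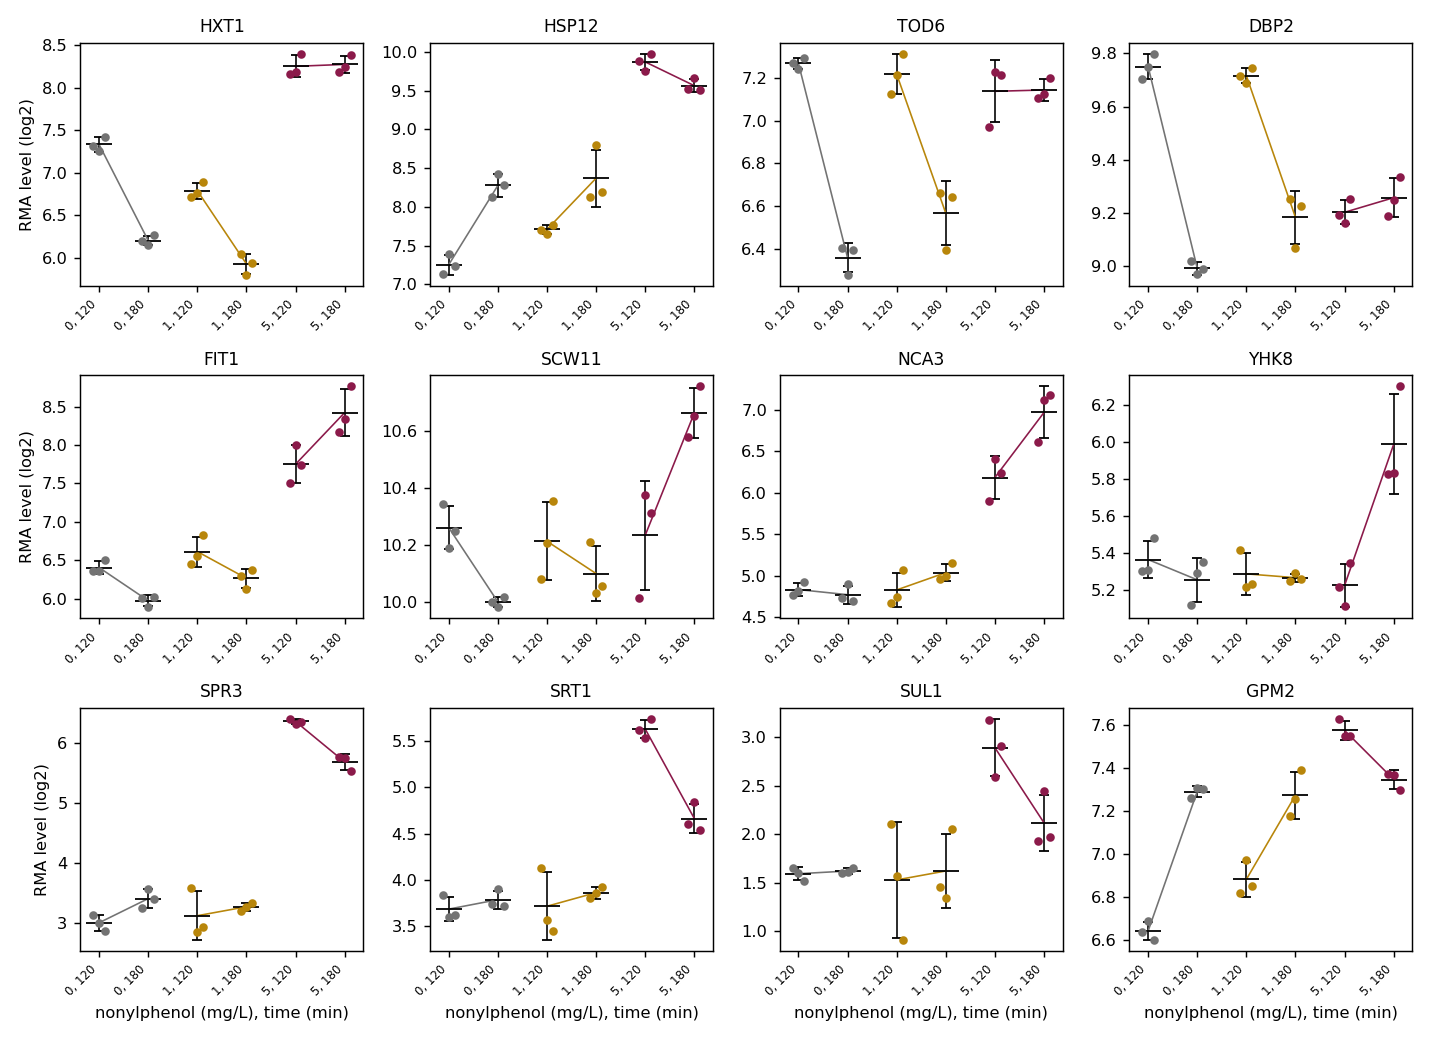
Log2 level of 12 genes on each array (points) in the 6 groups, named by nonylphenol in mg/L and time in min, with bars for the mean and SD of 3 arrays and lines joining the 2 times of a dose. The y axes differ between panels and do not start at 0. HXT1, HSP12, TOD6 and DBP2 move in the controls and at 1 mg/L, while NCA3, YHK8, SRT1 and SUL1 move at 5 mg/L.

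**Figure D4:**
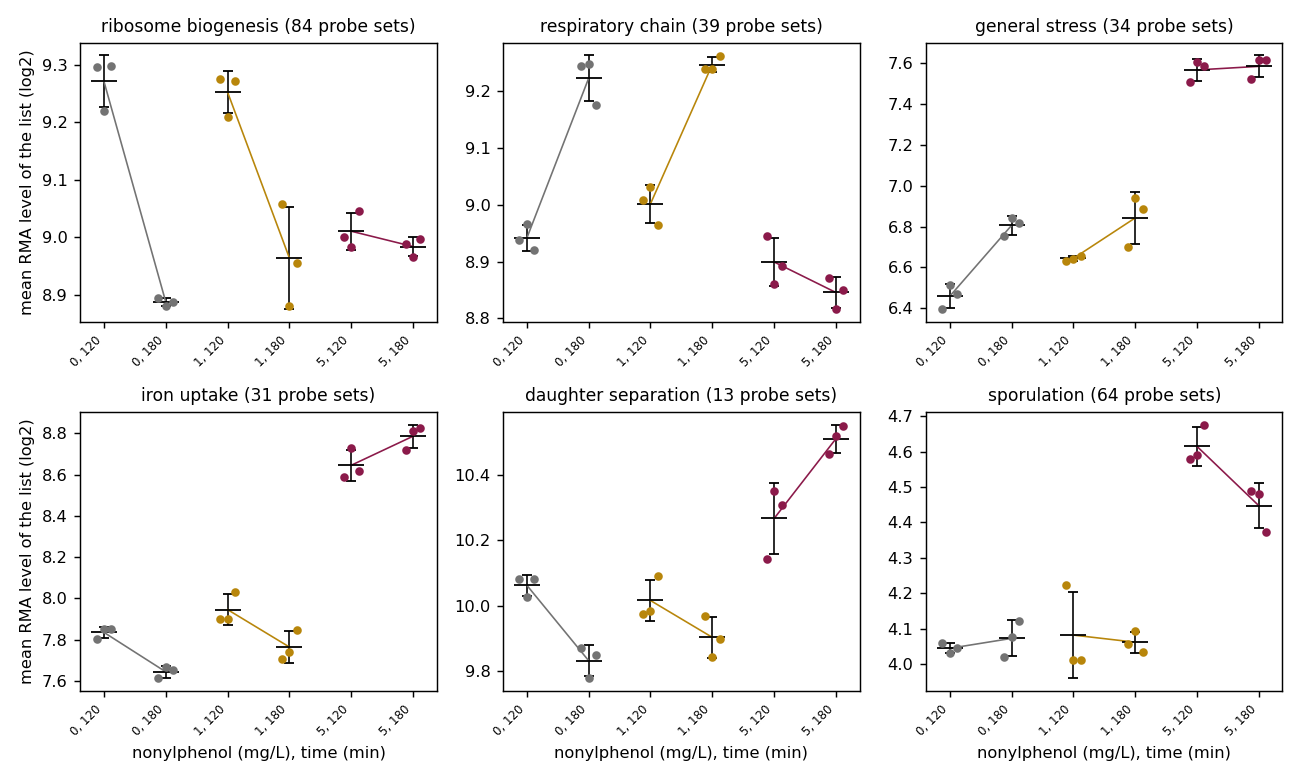
Mean log2 level of 6 gene lists on each array (points) in the 6 groups, with bars for the mean and SD of 3 arrays and lines joining the 2 times of a dose. The y axes differ between panels and do not start at 0. Ribosome biogenesis falls and the respiratory chain rises over time at 0 and 1 mg/L, with medians of -0.39 and 0.29 in controls, while daughter separation rises and sporulation falls at 5 mg/L, with medians of 0.23 and -0.12.

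Where effects grew below 0, controls rose over time in each of the genes named. OPT2 (YPR194C), an oligopeptide transporter that also acts in membrane lipid asymmetry, read 6.17, 6.11 and 6.12 in controls at 120 min and 6.95, 6.86 and 7.12 at 180 min, against 4.04, 3.84 and 4.32 and then 4.18, 3.93 and 4.22 at 5 mg/L. The exposed arrays of the 2 times overlapped, and the effect went from 4.19-fold lower to 7.27-fold lower (difference -0.80, SE 0.15, adjusted p = 0.00507). ARO10 and ARO9, which break down aromatic amino acids by the Ehrlich pathway, had -0.69 and -0.39, and EEB1, an ethyl ester synthase, had -0.88. They were the 3 of 13 Ehrlich pathway and ester genes that were lower, with 0 higher (3 and 0 at an unadjusted p under 0.05). BNA4 and YPR027C had -0.70 and -0.69. For YPR027C the change over time was 0.33 in controls, -0.36 at 5 mg/L (not called) and -0.05 at 1 mg/L. Its difference against 1 mg/L, -0.31, was not called. In the 172 probe sets of this class, the median effect went from -0.18 to -0.55, with a median change of 0.26 in controls and -0.09 at 5 mg/L. In the 182 whose effect grew above 0 it went from 0.29 to 0.71, with -0.31 in controls and 0.09 at 5 mg/L.

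Biosynthetic lists had members in both directions, and most of their counts lay near the 10.7% higher and 9.48% lower of all probe sets. For amino acids 8 of 54 were higher and 4 lower, the higher including LYS20, homocitrate synthase (0.47), CPA1, of carbamoyl phosphate synthesis for arginine (0.65), ARG1 (0.46) and ILV2 (0.49), each of which fell over time in controls, by 0.53, 0.45, 0.34 and 0.39. For purines and pyrimidines 3 of 32 were higher, with URA7 (0.34) and GUA1 (0.26), and 6 lower, with ADE17 (-0.67) and ADE2 (-0.34). One-carbon and folate genes had 1 of 16 higher and 5 lower, of which GCV1, GCV2 and GCV3, subunits of the glycine cleavage complex, had -0.63, -0.26 and -0.31, and MTD1 had -0.34. Sulfur and methionine genes had 4 of 33 each way, with CYS3 (0.31), SAH1 (0.28) and MUP3 (-0.45). Nitrogen catabolite genes had 3 of 30 higher, with GAT1 (0.50) and OPT1 (0.61), and 4 lower, with UGA4 (-0.35). Ergosterol genes had 5 of 30 higher, with ERG3 (0.51), IDI1 (0.23) and HMG1 (0.21), and 3 lower, with ERG28 (-0.40). Phospholipid genes had 1 of 23 higher, INO2 (0.50), and 3 lower, OPI3 (-0.56), PIS1 (-0.29) and INO1. Fatty acid genes had 1 of 14 each way, ELO2 (0.26) and ELO1 (-0.57). Leaving out 1 array lost the calls of HMG1, PIS1 and ELO2 in 8 of 12 fits each, and that of ERG28 in 7.

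The remaining lists had counts to be read against the background shares of 10.7% higher and 9.48% lower. Hypoxic genes had 9 of 27 higher and 2 lower, and of these TIR1, a cell wall mannoprotein, had 0.54, while the median was 0.05. The higher count ran from 2 to 11 when 1 array was left out and was 0 with replicate 1 as the only control at 180 min. Cell wall genes had 5 of 43 higher, with FLO11 (0.63) and UTR2 (0.35), and 2 lower, YPS6 (-0.41) and BAG7 (-0.59). Oxidative stress genes had 2 of 33 higher, with YAP1 (0.41), and 5 lower, with GPX1, GTT1 and FLR1 (each -0.47). Glycerol and osmotic genes had 2 of 22 higher, with SHO1 (0.24), and 3 lower, with GPP2 (-0.40) and GCY1 (-0.28). Phosphate genes had 2 of 22 higher, PHO4 (0.57) and PHO11 (0.32), and 0 lower (7 and 0 at an unadjusted p under 0.05). Subtelomeric genes had 2 of 8 lower, COS4 (-0.37) and COS2 (-0.31), both from probe sets of the shared design, and 0 higher (3 and 0 at an unadjusted p under 0.05). By limma 0 were called among 38 proteasome genes (0 higher and 8 lower at an unadjusted p under 0.05), 11 core histone probe sets (0 and 2) and 8 probe sets for 5 aryl-alcohol dehydrogenase genes (0 and 1).

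Set against 1 mg/L, fewer members of each main list were called. The change over time at 5 mg/L exceeded that at 1 mg/L for 22 of 84 ribosome biogenesis probe sets, 10 of 31 for iron uptake and 5 of 13 for daughter separation, and it was lower for 14 of 39 of the respiratory chain, 7 of 34 general stress genes and 7 of 64 for sporulation. Mitochondrial ribosomal proteins had 1 of 63 lower there, against 18 with controls as reference. Of shorter lists, 4 of 20 for the citrate cycle, 3 of 19 for glycogen and trehalose and 3 of 13 for the Ehrlich pathway and esters were lower. HXT1 had 0.89 in this comparison, HSP12 -0.97, FIT1 1.02, SRT1 -1.11, FIG1 -1.04 and YMR317W 0.99, all called. NCA3 (0.58), SUL1 (-0.87), AGA1 (0.53) and HAC1 (-0.60) were not called there. Both comparisons share the 5 mg/L arrays, so these values are no separate evidence on the exposed cultures.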

How the data were processed

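The deposited values are RMA signals: the authors removed background, brought the arrays to a common distribution and combined the probes of each probe set, with RMA, affy and limma named per the submitters' processing notes. Versions and settings: not given in the sources used here. From their range the deposited values were taken to be log2, since no source states the base. Biotin-labelled RNA was hybridised to single-colour Affymetrix arrays, 3 in each of 6 groups, per the labels' protocols. The number of arrays limits the precision.

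Of 10928 probe sets, 5498 named for S. cerevisiae were tested, 1746 named for another yeast gave the background, 213 were controls, 1 had several names and 3470 had none. Each probe set was kept, also for the 47 genes with more than 1, of which 4 were called by some of their probe sets only. No genome position or sequence was used here.

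The 12 arrays were modelled by their group means in limma 3.58.1, under R 4.3.3, with eBayes moderation and no trend, and p-values were adjusted by Benjamini-Hochberg over 5498 probe sets at a threshold of 0.05. Contrasts with 1 mg/L used all 18 arrays. The steps were tested on simulated data. Dim probe sets were kept.

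The comparison, its members and the 43 gene lists (1372 genes, 1329 measured, 22 in more than 1 list) were chosen with earlier results of these data known, so list counts are a description. Genes named are the 12 largest differences each way above background in at least 1 group, the 5 largest of each class of effect that grew, shrank or turned, and up to 4 called members of each list with the smallest p; single genes of the comparisons over time were named beyond this after their values were seen. Alternatives were the number of arrays in the fit, blocks by replicate number, moderation with trend, array weights, filters on dim probe sets, other scalings and leaving out arrays. The use of replicate 1 as the only control at 180 min and the comparison with 1 mg/L were chosen after seeing the data.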

Additional observations from a re-analysis of the deposited data

Results flagged for a closer look

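The values below are differences between the 2 times in the effect of 5 mg/L, each past an adjusted p of 0.05 in limma's test of the difference itself, with 3 arrays in each of 4 groups. In all, 1108 probe sets passed. Above 0 the largest were HXT1 (1.15), YMR317W (1.11), FIT1 (1.10), YAR068W (1.04), YAR066W (1.00), PRY3 (0.95), TOD6 (0.91), ARN1 (0.91), YHK8 (0.87), NCA3 (0.85), SFL1 (0.82) and DBP2 (0.81). Below 0 they were HSP12 (-1.33), EGO4 (-1.13), SAE3 (-1.09), SPR3 (-1.08), SRT1 (-1.07), YGR273C (-0.93), FIG1 (-0.92), GAD1 (-0.89), MAM1 (-0.89), EEB1 (-0.88), GPM2 (-0.88) and HAC1 (-0.87). SAE3 and YGR273C read under background in the control means of both times and entered through the 5 mg/L groups, so their values and their place in this order have no measured control level behind them. PRM7 (0.77) and YPC1 (-0.87) had estimates of opposite sign at the 2 times.

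SFL1, a repressor of flocculation genes, was 0.56 below control (log2 -0.56) at 120 min and at 0.26 at 180 min, where the effect did not pass. A second probe set of PRM7, a pheromone-regulated membrane protein, had 0.58. YPC1, a ceramidase of the ER, was 0.20 above control at 120 min and 0.67 below it (log2 -0.67) at 180 min, both called. Against the change over time at 1 mg/L, HXT1, YMR317W, FIT1, YAR068W, YAR066W, PRY3, TOD6, ARN1, YHK8 and DBP2 were also called above 0, at 0.89, 0.99, 1.02, 0.94, 0.90, 0.84, 0.66, 0.69, 0.78 and 0.59, and NCA3, SFL1 and PRM7 were not. Below 0 all 13 except HAC1 were called there, from -0.62 for GAD1 and GPM2 to -1.11 for SRT1.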

How the results depend on the processing

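Main counts were 1108 differences between times, 3397 and 3567 effects at 120 and 180 min, 1645 changes over time in controls and 102 at 5 mg/L. The number of differences was within 1.5 times of its main value with all 18 arrays in the fit (824), with trend and robust moderation (1278), with filters on dim probe sets (1123 and 1142), with quantile normalization repeated (1077) and with median centring (1132). It was 2224 with array weights (1038 higher and 1186 lower). Residuals of same-numbered arrays correlated at -0.29 to 0.52, and 3 of 12 pairs were over 0.1. All 3 joined the 2 times of a dose: 5 mg/L replicates 1 (0.52) and 2 (0.26) and control replicate 2 (0.35). The other pairs of that kind were at -0.03, -0.09 and -0.10, and pairs of control and 5 mg/L ran from -0.29 to 0.01. Arrays of different numbers were not compared, so these values cannot decide whether the 2 times share flasks. With the replicate block 909 differences and 60 changes at 5 mg/L were called, and with the replicate block within time 535 differences (288 higher and 247 lower). With 18 arrays 49 changes at 5 mg/L were called. Without single arrays the differences ran from 556 to 1815, the effects from 3036 to 3410 at 120 min and from 3215 to 3717 at 180 min, and the changes over time from 885 to 1952 in controls and from 18 to 390 at 5 mg/L. Of 162 named probe sets, 123 were called without each array in turn. The calls lost most often were those of UBC7 (10 of 12 fits), INO1, RPP2B and IZH2 (9 each). With replicate 1 as the only control at 180 min, chosen after seeing the data and assuming that the lone array varies like the others, counts were 185 differences, 306 changes in controls and 45 at 5 mg/L, and 98 named probe sets were no longer called. With effects of at least log2 0.5, 217 shrank and 0 turned. The cause of these moves was not tested, beyond the fewer arrays of some fits.

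Scaling on poly-A transcripts shifted the median difference to 0.54 and left 49 differences, 2 changes in controls, 8 at 5 mg/L and 989 effects at 180 min (229 higher and 760 lower, against 1570 and 1997), while at 120 min the split was 105 higher and 4492 lower, against 1484 and 1913. It carries the scatter of these transcripts between arrays into every gene. Since the scaling adds 0.55 to every difference, any below 0 and under 0.55 in size turns above 0. Of the named genes 28 kept their call, 84 kept their direction without it, and 50 with differences below 0 turned above 0: MRP2 at 0.019, PEX18 at 0.022, PIG2 at 0.047, MRPS35 at 0.065, CIT1 at 0.066, DCI1 at 0.070, TDH1 at 0.076, FLR1 at 0.077, GPX1 at 0.080, GTT1 at 0.082, ATG39 at 0.087, QDR2 at 0.089, JEN1 at 0.097, COX5A, MUP3 and SDH2 at 0.10, SSA4 at 0.11, CYT1 at 0.13, YPS6 at 0.14, GPP2 and ERG28 at 0.15, ARO9 at 0.16, MRPL25, HXT4 and MDH1 at 0.17, COS4, ATG34, DUN1 and CAT2 at 0.18, MRPS9, ATG19 and IZH2 at 0.19, UGA4 at 0.20, ADH2, TPO4, MTD1 and ADE2 at 0.21, MDH2 at 0.22, MPD1 at 0.23, COS2, RPP2B and GCV3 at 0.24, PIS1 at 0.26, GCY1 at 0.27, ALK1, GCV2 and HSP78 at 0.29, RAD7 and PEX7 at 0.30 and UBC7 at 0.31.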

Other observations

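Among probe sets that belong to no comparison above, 1 of the 3470 without a name passed the test of the difference between times, with 232 at an unadjusted p under 0.05.

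The largest change over time at 5 mg/L was that of YDR524W-C, a small protein of unknown function, chosen here after its values were seen. It read 6.0, 5.92 and 5.96 at 120 min and 5.47, 4.96 and 3.94 at 180 min, a fall of log2 -1.17 that rests largely on replicate 3. Controls read 5.51, 5.50 and 5.81 and then 5.13, 5.33 and 5.42, and the difference between times did not pass (-0.86, SE 0.38, adjusted p = 0.12).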
